A study of Rattus norvegicus with 35 samples.

Results

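The serpins are a family of protease inhibitors, and their RNA was followed in the olfactory epithelium of newborn, adult and old Brown Norway rats, an inbred strain. The members were chosen by name alone: array probes other than controls whose gene name began with Serpin or Spin2, or whose description named a serine (or cysteine) peptidase or proteinase inhibitor of a clade. This gave 48 of the 41012 probes of the Agilent whole rat genome array, for 40 array gene names. No intensity entered that choice, but the family was taken up with earlier results of these data known and Spin2 was singled out by name, so the 4 Spin2 probes are described here without a test and the tests concern the other 44.

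Total RNA of the olfactory epithelium was hybridised to 35 arrays with 1 dye. The newborn group held 19 pups of 4 litters, aged 3 to 5 days and of unrecorded sex, with 1 array per pup: 4 pups in L1 and 5 each in L2, L3 and L4. The adult group held 4 males of 9 weeks and the old group 4 males of 22 months, each with an array for side A and an array for side B of the nose, which were averaged to 1 value per rat. No rat was treated. Levels are the log2 of the background-subtracted intensity over the median of its array, so 0 is the array median and 1 unit is a doubling. They can be compared between rats for 1 probe, but not between probes.

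A serpin folds around an exposed reactive loop that serves as bait. When a protease cuts the loop, the inhibitor snaps into a more stable shape and holds the protease in a covalent complex, which receptors of the LDL receptor family then clear. Clade A holds the secreted antitrypsins and antichymotrypsins, many of them made by the liver, clade B the intracellular serpins of epithelia and leukocytes, and a few members, such as the collagen chaperone Serpinh1, inhibit no protease.

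Array medians ran from 42.1 to 87.7 intensity units in newborn, from 81.6 to 162.2 in adult and from 37.1 to 55.3 in old rats, and 24484 to 28361 probes were above background on an array. The 10 slides were scanned on 5 days, and adult arrays shared no scan day with another group, so that scan day and age cannot be told apart for adult rats. L1 and old rats shared a scan day. All 7 measured genes of the mature olfactory neuron list were lower in newborn than in adult rats (Omp by 2.41 on the log2 scale). In these bulk samples, fewer cells of a type and less RNA per cell cannot be told apart. The median log2 change over all probes was 0.10 for newborn minus adult, -0.04 for newborn minus old and -0.13 for adult minus old, and quantile normalization between arrays moved these medians to 0.00, -0.04 and 0.00.

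Spin2a and Spin2b are the array's names for rat paralogs of the antichymotrypsin group. RefSeq now lists Spin2a as a synonym of Serpina3l and Spin2b of Serpina3c, a kallikrein-binding protein, and gives the bare Spin2 symbols to unrelated genes. Spin2a, known as serine protease inhibitor 2.1, is a classic gene induced by growth hormone in rat liver. In rn3, the build of the array files, 14 member probes of clade A lay within 576 kb of chromosome 6, and the Spin2a and Serpina3n probes were at its far end. The probe sequences are shown because paralogs this close could share signal, and because 2 of the 3 Spin2a probes are not independent: the capitals mark the 39 bases that they have in common.
Spin2a probe 1: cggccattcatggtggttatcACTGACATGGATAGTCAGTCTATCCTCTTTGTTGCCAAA
Spin2a probe 2: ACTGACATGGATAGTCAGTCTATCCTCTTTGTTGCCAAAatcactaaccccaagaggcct
Spin2a probe 3: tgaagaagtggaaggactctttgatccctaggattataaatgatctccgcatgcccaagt
Spin2b: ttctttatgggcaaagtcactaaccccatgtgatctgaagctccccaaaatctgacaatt
Serpina3n: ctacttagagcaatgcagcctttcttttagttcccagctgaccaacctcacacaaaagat
The Spin2a probes match chr6:128447282-128447341, chr6:128447303-128451635 and chr6:128445104-128446074, the last 2 spans being longer than the 60 bases of a probe. The Spin2b probe matches chr6:128383435-128383495 on the minus strand and the Serpina3n probe chr6:128472944-128473003 on the plus strand. Apart from the 39 bases within Spin2a, the longest run that any Spin2 probe shared with another clade A member was 12 bases, between Spin2a probe 2 and Spin2b. Binding of a probe to transcripts of a paralog was not tested.

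Spin2a was low in every pup and high in every adult and old rat. At Spin2a probe 1, the 19 pups ranged from -2.35 to 1.58 with a median of -0.31. The adult rats had 5.46, 6.04, 6.80 and 6.38, and the old rats 7.51, 7.06, 6.85 and 6.83. No pup came near an adult rat, and every old rat lay above every adult rat by a small margin. The mean of the 4 litters was -0.47 ± 0.44 (SD between litters), whereas adult rats averaged 6.17 ± 0.57 (SD, n = 4) and old rats 7.06 ± 0.32 (SD, n = 4), which is 99.8-fold and 185-fold. The probe was nevertheless above background in 18 of the 19 pups.

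The other Spin2a probes gave the same picture. Spin2a probe 2 was 109-fold and Spin2a probe 3 also 109-fold higher in adult than in newborn rats, and in old rats the factors were 196 and 169. They were above background in 17 and 12 of the 19 pups, so the factors at probe 3 rest partly on pups at background. Spin2a probe 3, with no base run over 7 shared with the other 2 probes, had 4.48, 5.07, 5.91 and 5.45 in adult rats and 6.28, 5.87, 5.68 and 5.61 in old rats, so that here the 2 older groups overlapped. With normexp background correction followed by quantile normalization, the newborn to adult difference of the 3 probes was smaller, -5.03, -4.81 and -4.22 on the log2 scale against -6.64, -6.77 and -6.77 (newborn minus adult), and its direction was kept. Against L1 alone, scanned on the same day as the old rats, the newborn minus old difference was -7.86, -7.97 and -8.09, or -5.61, -5.16 and -4.66 with normexp, and probe 3 was above background in only 1 of the 4 L1 pups. At probe 1 the 2 sides of a nose differed by at most 0.20 in adult rats, which spanned 1.34, and by at most 0.55 in old rats, which spanned 0.68. Of the adult rats, 13 and 14 shared a slide and scan day and were lower than 15 and 16, which shared another, so rat and slide cannot be told apart there.

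Spin2b did not share this pattern. Its probe was above background in 4 of 19 pups, on no adult array and on 7 of 8 old arrays. The pups ranged from -6.64, the floor set for values at or below background, to 0.24. The adult rats had -4.51, -4.23, -2.84 and -3.89 and the old rats -0.56, -1.22, -1.66 and -2.06, with 1 of the 8 adult array values left out as a spot outlier. Old rats were above all adult rats, and the pups spread over both. With normexp and quantile normalization, adult minus old at Spin2b shrank from -2.49 to -0.175 and newborn minus old from -1.88 to -0.145.

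**Figure D1:**
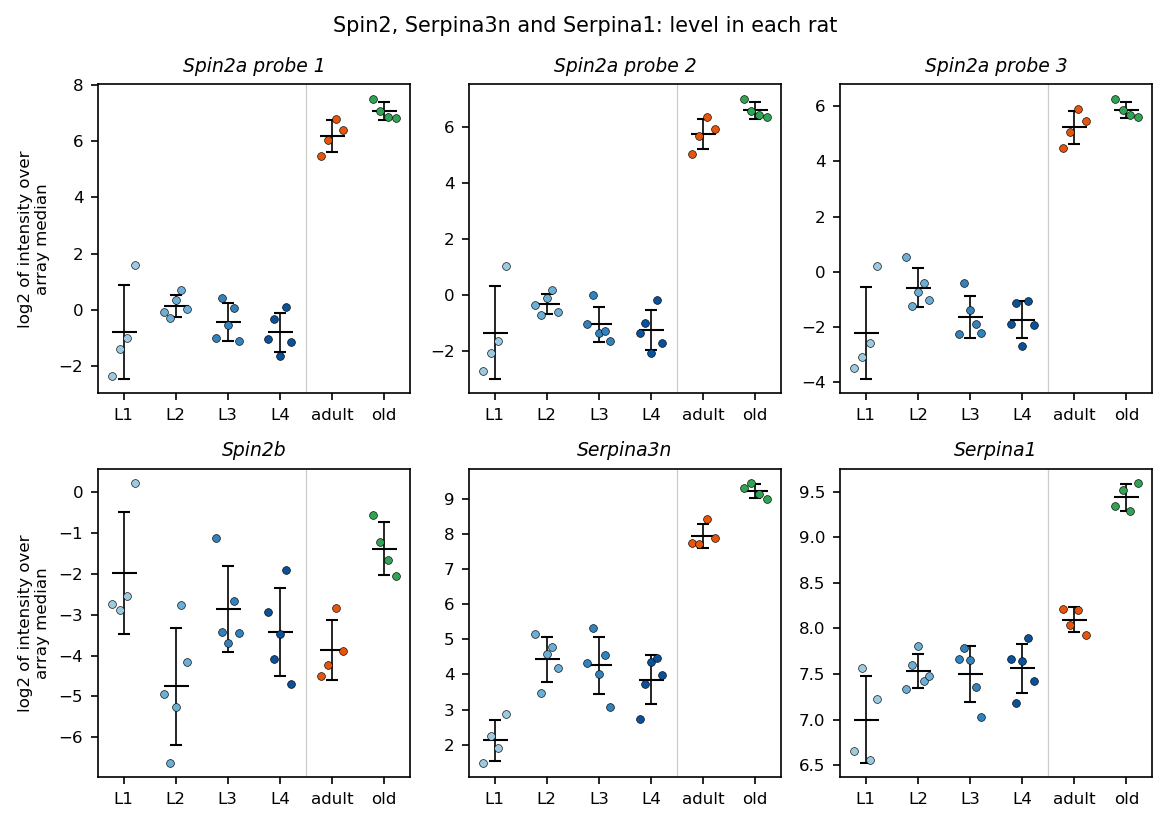
Level of 6 clade A probes in each rat (y axis, log2 of intensity over the array median) by litter or age group (x axis), with the group mean and SD as bars. The 3 Spin2a probes and Serpina3n separate all pups from all adult and old rats, Spin2b is highest in pup 12 of L1 and then in an old rat, and Serpina1 steps up at each age.

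Serpina3n, a close paralog of Spin2a that inhibits leukocyte proteases and is induced in the acute phase, was the tested member with the largest difference. Its level in pups ran from 1.47 to 5.32 with a median of 4.0. The adult rats had 7.73, 7.71, 8.43 and 7.88 and the old rats 9.31, 9.47, 9.13 and 9.00. The 3 ages did not overlap. Newborn minus adult was -4.27 ± 0.32 (SE, limma, adjusted p = 4.92e-11), 19.3-fold, and newborn minus old was -5.56 ± 0.32 (adjusted p = 8.19e-13), 47.2-fold. Adult minus old, -1.29 ± 0.41, missed the threshold (adjusted p = 0.0136). Serpina3n also differed among litters (limma F test, adjusted p = 0.000211): L1 had a mean of 2.12, against 4.43, 4.26 and 3.86 in L2, L3 and L4, and no L1 pup, at 1.47 to 2.87, reached the lowest pup of L2 or L3.

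The stretch before the start of each gene is shown for these 2 members because they were the 2 that were much lower in pups, in the GRCr8 build of RefSeq. The capitals mark the letters TTCNNNGAA, the form bound by STAT factors, searched on both strands (the motif reads the same on each).
Serpina3l (Spin2a), chr6:129062956-129063205, plus strand: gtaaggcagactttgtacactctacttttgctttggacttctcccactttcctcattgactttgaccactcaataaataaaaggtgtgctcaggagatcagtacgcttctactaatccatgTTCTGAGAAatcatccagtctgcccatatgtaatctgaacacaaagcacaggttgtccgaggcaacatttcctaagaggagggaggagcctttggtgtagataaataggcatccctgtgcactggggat
Serpina3n, chr6:129088142-129088391, plus strand: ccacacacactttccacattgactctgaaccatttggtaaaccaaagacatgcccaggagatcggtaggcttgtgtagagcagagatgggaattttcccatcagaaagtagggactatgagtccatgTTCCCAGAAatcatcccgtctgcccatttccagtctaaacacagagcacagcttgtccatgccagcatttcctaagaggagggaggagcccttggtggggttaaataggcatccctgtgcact
The match began 129 bases before the start of Serpina3l and 123 bases before that of Serpina3n, and the longest run that the 2 stretches shared was 25 bases. Of the 26 member symbols with a promoter in the table, these were the 2 that held a match, 7.69%, and 7.67% of all 33469 promoters of this length held one. The letters are a description and not a measured binding site.

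Serpina1, the antitrypsin that restrains neutrophil elastase, rose with age in 2 steps. Pups had 6.55 to 7.90 with a median of 7.48, the adult rats had 8.22, 8.04, 8.20 and 7.92, and the old rats 9.35, 9.52, 9.29 and 9.60. The 3 ages did not overlap, although the highest pup came close to the lowest adult rat. Newborn minus adult was -0.70 ± 0.15 (adjusted p = 0.000286), newborn minus old -2.04 ± 0.15 (adjusted p = 4.71e-11) and adult minus old -1.34 ± 0.19 (adjusted p = 4e-06), or -1.21 relative to all probes. The larger step turned with the scaling: with quantile normalization newborn minus adult was -1.32 and adult minus old -0.72, and with normexp -1.36 and -0.64. Most sustentacular cell markers moved in the direction of Serpina1, Spin2a and Serpina3n. Of the 6, 4 were called lower (19.9% of all probes) and Krt18, at 0.62, higher (27.0%) in newborn than adult rats. All 6 were lower in newborn than old rats (22.8%) and 3 lower in adult than old rats (20.6%). Their summed level was 11.20 to 12.39 in pups, 12.01 to 12.25 in adult and 12.82 to 13.01 in old rats. Pups and adult rats overlapped in this sum, which bright probes dominate. Krt18, the marker called higher in newborn rats, had the highest mean of the 6, 11.22 in newborn and 10.60 in adult rats. The sum therefore cannot stand for the markers called lower. The 7 mature olfactory neuron markers were also lower in newborn than in both older groups. The summed level of the 4 hepatocyte markers was close to background in adult and old rats. It was -2.99 to 5.71 in pups, with a median of -1.13 against -2.665 in adult rats. Adult rats had -3.10 to -2.20 and old rats -2.02 to -0.73. None of the 4 was called, and no array of adult or old rats had Alb, the albumin gene, above background. The part of any of these lists in the serpin levels was not tested.

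The kallistatin gene Serpina4, whose product binds tissue kallikrein, was lowest in adult rats. Its pups ranged from -1.78 to 0.56, the adult rats had -1.94, -2.14, -2.32 and -1.98, and the old rats 0.41, 0.42, -0.16 and -1.03. All adult rats lay below all other rats, with newborn minus adult at 1.57 ± 0.25 (adjusted p = 6.35e-06) and adult minus old at -2.0 ± 0.31 (adjusted p = 1.53e-05, or -1.87 relative to all probes). With normexp and quantile normalization these were 0.35 and -0.48. The methods' t-test did not call the second of these (adjusted p = 0.0261).

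Serpina5, the protein C inhibitor, was highest in adult rats. In pups it ran from 1.76 to 2.72, while the adult rats had 2.75, 2.84, 3.62 and 3.07 and the old rats 1.93, 2.37, 2.62 and 2.28. Newborn minus adult was -0.92 ± 0.15 (adjusted p = 1.21e-05), which the methods' t-test did not call (adjusted p = 0.0307). Adult minus old was 0.77 ± 0.19 (adjusted p = 0.00215), a call that was lost without adult rat 15 (0.59, adjusted p = 0.0138) or without old rat 17 (0.65, adjusted p = 0.0129), and with the rat, slide or scan day as a random block. The other 7 single-probe members of clade A, Serpina3m, Serpina6, Serpina7, Serpina9, Serpina10, Serpina12 and LOC299277, reached the study's detection rule in no group, although Serpina3m and Serpina12, each above background on 1 adult array alone, passed the test between newborn and adult rats.

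Over the whole family, 22 of the 48 probes were expressed in all 6 groups by the study's rule (3 arrays of a litter, or 6 of the 8 adult or old arrays), which is 45.8% against 57.7% of all probes. A further 6 were expressed in some groups and 20 in none. By clade, 3 of the 11 clade A probes other than Spin2, 2 of the 4 Spin2 probes, 9 of 18 in clade B, 2 of 4 in clade E, 2 of 3 in clade F, both in clade G, the 1 in clade H and 1 of 2 in clade I were expressed in all groups, and none of clades C and D. Of the 44 tested members, 10 had a higher level in newborn than adult rats at an adjusted p under 0.01, where 27.0% of all probes were, and 9 were lower, where 19.9% of all probes were. With quantile normalization the split was 6 to 10, and with normexp and quantile normalization 4 to 9. In newborn against old rats, 5 were higher (20.6% of all probes) and 10 lower (22.8%), or 2 and 8 with normexp and quantile normalization. In adult against old rats, 2 were higher (11.8% of all probes) and 7 lower (20.6%), or 5 and 5 with quantile normalization. Shares of members ran from 4.55% to 22.7%, and none stood clearly above the share of all probes. The median change over the 44 members was 0.15, -0.03 and -0.15, beside 0.10, -0.04 and -0.13 over all probes.

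A 5-fold difference, the study's second criterion, was rare. Newborn against adult rats, Serpinb10 was higher (2.27% of all probes) and Serpina3n lower (1.65%). Newborn against old rats, Serpinb10 and Serpinh1 were higher (2.97% of all probes), and Serpina3n and Serpinc1 probe 1 lower (1.86%). Adult against old rats, no member was higher (1.23% of all probes) and Serpini2 alone was lower (1.13%). Serpinc1 encodes antithrombin, and its probe was above background in 1 pup and on 3 old arrays.

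**Figure D2:**
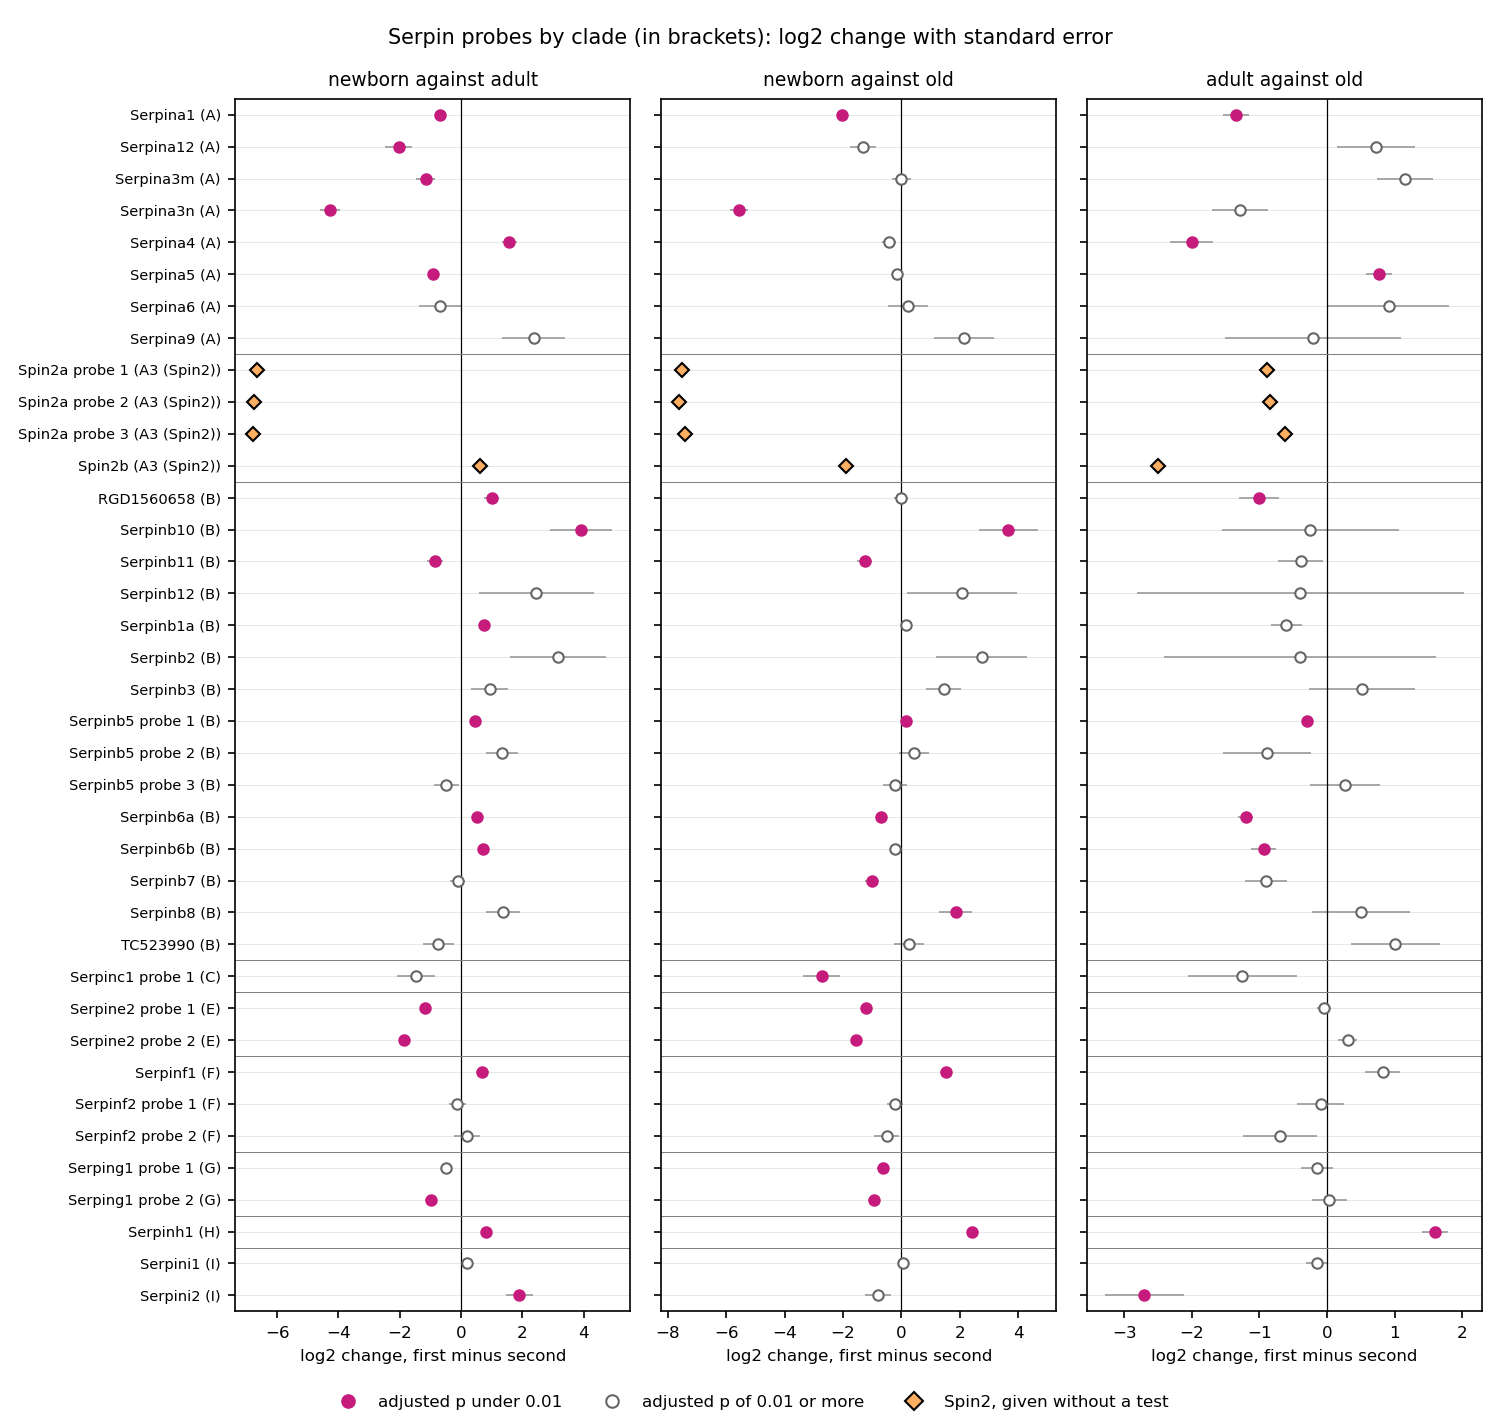
Log2 change (x axis, first group minus second) of the 38 probes above background on at least 1 array, by clade (y axis, clade in brackets), with the standard error as bars for the 34 tested members among them. Filled circles passed an adjusted p of 0.01; the Spin2a diamonds lie beyond -6 in both newborn comparisons, Serpina3n follows them and Serpinb10 lies highest on the other side.

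Serpinh1, the collagen chaperone of the endoplasmic reticulum known as HSP47, was the clearest member to fall with age. Pups ran from 7.48 to 8.63 with a median of 7.93, the adult rats had 6.83, 7.46, 6.85 and 7.58, and the old rats 5.77, 5.27, 5.71 and 5.56. The old rats lay below all other rats. Newborn minus old was 2.41 ± 0.15 (adjusted p = 3.07e-12), 5.32-fold, and adult minus old 1.60 ± 0.19 (adjusted p = 3.75e-07), or 1.73 relative to all probes. Newborn minus adult, 0.81 ± 0.15 (adjusted p = 5.85e-05), lost its call with quantile normalization (0.27, adjusted p = 0.176), with normexp (0.33, adjusted p = 0.087) and in the methods' t-test (0.80, adjusted p = 0.042). Against L1 alone the difference to old rats was 2.56.

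The stretch before Serpinh1, chr1:163062977-163063226 on the minus strand of GRCr8, is shown because the gene is a textbook target of heat shock factor. The capitals mark the heat shock element in its inverted repeat form (GAA, 2 bases, TTC, 2 bases, GAA), searched on both strands, here found on the opposite strand and beginning 35 bases before the start. It was the 1 promoter of the 26 that held them, against 0.663% of all promoters.
Serpinh1: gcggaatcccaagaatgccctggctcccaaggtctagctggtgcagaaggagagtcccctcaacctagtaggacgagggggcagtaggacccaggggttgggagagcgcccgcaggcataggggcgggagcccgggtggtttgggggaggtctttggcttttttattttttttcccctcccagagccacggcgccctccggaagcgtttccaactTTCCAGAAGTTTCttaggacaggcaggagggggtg

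Collagens and the enzymes that modify them were listed with Serpinh1, and 14 of 15 were measured. Of these, 10 were higher in newborn than in old rats (20.6% of all probes) and none lower (22.8%), with a median of 2.42, and 7 were higher (11.8%) and 3 lower (20.6%) in adult than in old rats. Col1a1, the main chain of bone and skin collagen, was higher by 3.65 and 3.34 in newborn and adult than in old rats, and Col3a1 by 4.23 and 2.42. The 3 that were lower in adult than in old rats were P4hb at -0.48, Plod1 at -0.49 and Ppib at -0.43, while P4ha1, a prolyl hydroxylase subunit, was higher by 0.76. The osteoblast markers moved with Serpinh1 in the comparisons with old rats. There, 4 of 4 were higher in newborn (20.6% of all probes) and 3 of 4 in adult rats (11.8%). Between newborn and adult rats none was called higher (27.0% of all probes), and Alpl alone was called lower (19.9%), by 1.31. Their median change there was -0.005, beside 0.81 at Serpinh1. The summed level was 9.31 to 11.13 in pups, 9.54 to 10.41 in adult and 8.09 to 8.94 in old rats. The part of these markers in the Serpinh1 difference was not tested.

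Serpinf1, which encodes pigment epithelium-derived factor, an inhibitor of vessel growth with no protease target, also fell. Its range in pups was 6.45 to 8.13, the adult rats had 6.21, 6.91, 6.17 and 7.03, and the old rats 6.15, 5.26, 5.89 and 5.72. All old rats lay below all pups. Newborn minus old was 1.52 ± 0.20 (adjusted p = 8.48e-07), while adult minus old, 0.82 ± 0.26, missed the threshold (adjusted p = 0.0127). The call of newborn against adult rats (0.70 ± 0.20, adjusted p = 0.00498) was lost without adult rat 13 (0.57, adjusted p = 0.0381) or 15 (0.56, adjusted p = 0.0415), with litter means as replicates (adjusted p = 0.0392) and with quantile normalization (0.24, adjusted p = 0.362).

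Serpine2, protease nexin-1, a cell-surface inhibitor of thrombin and of plasminogen activators, rose between birth and adulthood at both of its probes. At Serpine2 probe 1 the pups ranged from 6.14 to 6.81, the adult rats had 7.70, 7.48, 7.75 and 7.58 and the old rats 7.54, 7.73, 7.56 and 7.87. At Serpine2 probe 2 the pups ranged from 2.79 to 3.60, the adult rats had 5.23, 4.93, 5.21 and 5.15 and the old rats 4.66, 4.80, 4.69 and 5.13. At both probes every pup lay below every older rat, and adult and old rats overlapped. Newborn minus adult was -1.17 ± 0.08 (adjusted p = 9.86e-12) and -1.86 ± 0.11 (adjusted p = 4.62e-13), and newborn minus old -1.21 ± 0.08 (adjusted p = 8.83e-12) and -1.55 ± 0.11 (adjusted p = 1.93e-11). Neither probe was called between adult and old rats, where probe 1 changed sign between scalings (-0.05, or 0.50 with quantile normalization). LOC683254, described as similar to Serpine2, was above background on no array.

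Serping1 encodes the C1 inhibitor, which restrains the first proteases of complement. At Serping1 probe 1 the pups ranged from 5.32 to 6.93, the adult rats had 6.01, 6.71, 7.32 and 6.92 and the old rats 7.25, 6.53, 7.02 and 6.76. At Serping1 probe 2 the pups ranged from 1.17 to 2.53, the adult rats had 1.95, 2.74, 3.51 and 2.83 and the old rats 3.10, 2.49, 2.77 and 2.51. The groups overlapped at both probes. Probe 2 was lower in newborn than in adult rats by 0.98 ± 0.20 (adjusted p = 0.000204), a call lost with litter means as replicates (adjusted p = 0.0136) and in the methods' t-test (adjusted p = 0.0893), and at probe 1 the change of -0.49 ± 0.18 missed the threshold (adjusted p = 0.028) and was -0.93 with quantile normalization and -1.01 with normexp. Newborn minus old was called at both, -0.64 ± 0.18 (adjusted p = 0.0054) and -0.95 ± 0.20 (adjusted p = 0.000356, or 0.0185 with litter means as replicates). Serpinf2, the antiplasmin gene, was called in no comparison.

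**Figure D3:**
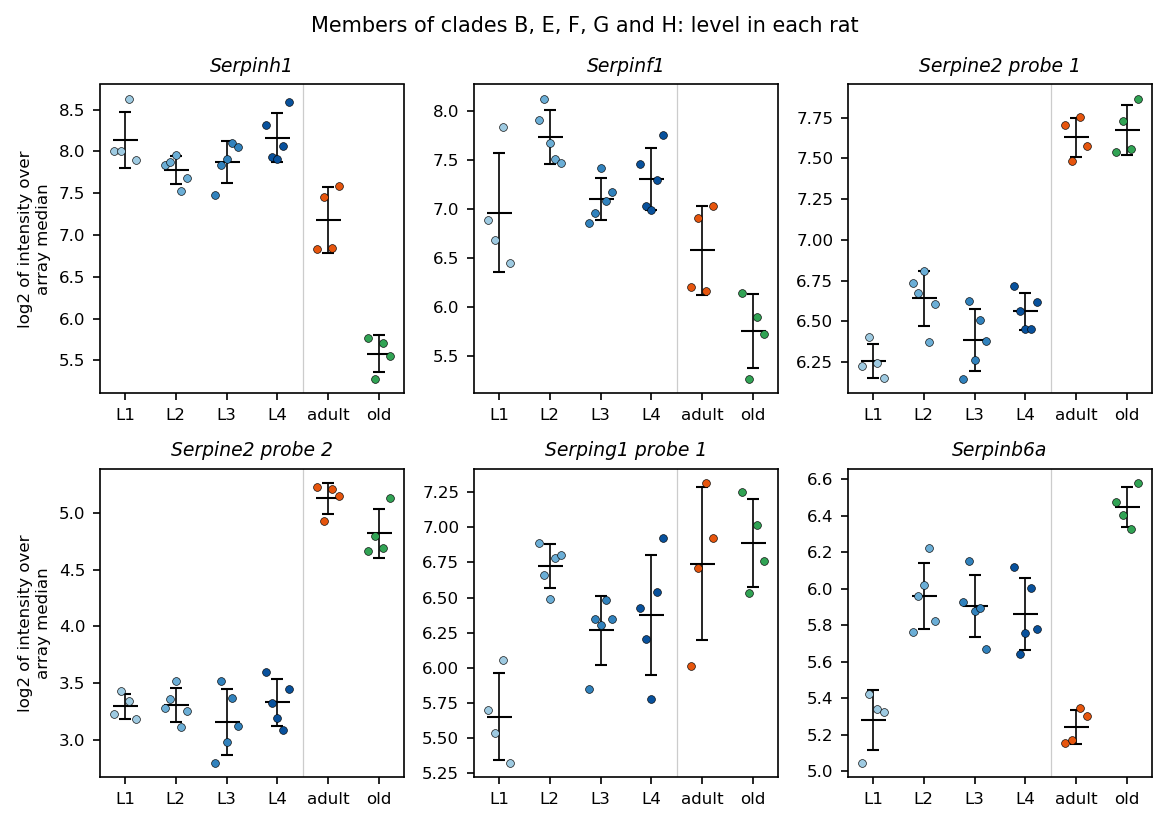
Level of 6 probes of clades B, E, F, G and H in each rat (y axis, log2 of intensity over the array median) by litter or age group (x axis), with the group mean and SD as bars. Serpinh1 and Serpinf1 are lowest in old rats, the 2 Serpine2 probes step up after birth and stay level, and Serpinb6a is lower in L1 and adult rats than in old rats.

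Among the clade B serpins, which act inside cells, several had their lowest mean in adult rats when the litters were pooled. Serpinb6a, an inhibitor of cathepsin G and trypsin-like proteases, ranged from 5.04 to 6.22 in pups, with 5.16, 5.17, 5.35 and 5.30 in adult and 6.48, 6.41, 6.33 and 6.58 in old rats. Every old rat lay above all other rats. Adult minus old was -1.20 ± 0.11 (adjusted p = 8e-09), or -1.07 relative to all probes, and newborn minus old -0.70 ± 0.09 (adjusted p = 3.27e-07). Newborn minus adult, 0.51 ± 0.09 (adjusted p = 2.21e-05), fell below the threshold with quantile normalization (0.16, adjusted p = 0.0322). L1 was close to adult rats at Serpinb6a, with a mean of 5.28 against 5.24, while L2, L3 and L4 had 5.96, 5.91 and 5.86. The related Serpinb6b had means of 3.08, 2.37 and 3.31 in newborn, adult and old rats and was called between adult and the other ages. RGD1560658, described as similar to Serpinb1b, had -2.07, -2.05, -2.35 and -2.09 in adult and -1.02, -1.08, -1.06 and -1.36 in old rats, and the pups, at -2.07 to 0.13, spread over both. Newborn minus adult was 0.99 ± 0.23 (adjusted p = 0.000768), or 0.21 with normexp and quantile normalization. Adult minus old, -1.01 ± 0.30 (adjusted p = 0.00817), was lost when any 1 adult or old rat or L4 pup 33 was left out, with adjusted p between 0.01 and 0.0251. That call was also lost with 75th percentile scaling (adjusted p = 0.0146), quantile normalization alone (adjusted p = 0.0138) and normexp and quantile normalization (-0.19, adjusted p = 0.0712). Serpinb1a, the leukocyte elastase inhibitor, was higher in newborn than in adult rats by 0.76 ± 0.18 (adjusted p = 0.000879). L1 did not share this difference, with a mean of 2.63 against 2.70 in adult rats, while L2, L3 and L4 had 3.74, 3.77 and 3.67.

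Serpinb11, a clade member of poorly known target, rose after birth. In pups it ran from 3.99 to 5.88, the adult rats had 5.09, 5.72, 6.11 and 6.64, and the old rats 6.28, 6.28, 6.32 and 6.23, so the old rats were tightly grouped near the top of the adult range. Newborn minus old was -1.25 ± 0.26 (adjusted p = 0.000277). Newborn minus adult, -0.86 ± 0.26 (adjusted p = 0.00694), was lost without adult rat 14 (adjusted p = 0.0133), 15 (adjusted p = 0.0318) or 16 (-0.61, adjusted p = 0.0716), without L1 (adjusted p = 0.0133) and with litter means as replicates (adjusted p = 0.0194). Serpinb7, a skin serpin, was lower in newborn than in old rats by 1.01 ± 0.25 (adjusted p = 0.00121).

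The 3 probes of Serpinb5, the epithelial serpin maspin, disagreed. The brightest, probe 1 at chr13:13058612-13058671, ranged from 6.13 to 6.59 in pups, with 5.98, 5.80, 5.98 and 5.88 in adult and 6.16, 6.27, 6.09 and 6.31 in old rats, and was called in all 3 comparisons. Its changes were small, 0.47, 0.17 and -0.30. With quantile normalization the first was 0.08 and not called (adjusted p = 0.187), and the last reversed to 0.094. The second was lost in 12 of the 27 fits that left out 1 rat (L1 9 and 10, L2 21 to 23, L3 26, L4 32 to 34 or old 17 to 19), with the largest adjusted p, 0.0677, without old rat 19. Probe 2 at chr13:13056384-13056443 ranged from 1.19 to 5.68 in pups, and probe 3 at chr13:13057470-13057529 from -0.69 to 3.14, and neither was called. Both were highest in the same 4 pups, which are described next.

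Several serpins stood high in a few single pups. Serpinb12 was above background in 5 pups, at 5.78 in L1 pup 9, 4.85 in L3 pup 30, 4.42 in L1 pup 11, -0.75 in L4 pup 35 and -0.86 in L4 pup 32, and the lowest pups were at the floor of -6.64. Serpinb2, plasminogen activator inhibitor 2, had its 4 highest levels in pups 9, 30, 11 and 32, at 3.30, 1.98, 1.82 and 0.38. Serpina9 was above background in those 4 pups alone. On adult and old arrays Serpinb2, Serpinb12 and Serpina9 were never above background.

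Serpinb10, a leukocyte serpin also called bomapin, was highest in the same pups, at 5.13 in pup 9, 4.92 in pup 30, 3.45 in pup 32 and 3.40 in pup 11. It ranged down to -1.46 in pups, with -3.67, -3.48, -1.88 and -2.66 in adult and -1.45, -4.18, -1.36 and -3.71 in old rats. All adult rats lay below all pups, and the 2 highest old rats overlapped the lowest pups. Newborn minus adult was 3.92 ± 1.02 (adjusted p = 0.00213) and newborn minus old 3.67 ± 1.02 (adjusted p = 0.00395). Without the 4 pups these were 2.96 (adjusted p = 0.00126) and 2.71 (adjusted p = 0.00293). With normexp they were 1.10 and 1.12 and were not called. The methods' t-test did not call the second (adjusted p = 0.0157), and the first was lost without adult rat 13 (adjusted p = 0.0117) or 14 (adjusted p = 0.0105), the second without old rat 18 (adjusted p = 0.028) or 20 (adjusted p = 0.0217).

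Of the markers of squamous epithelium, Krt13 and Ivl were high in pups 9, 11, 30 and 32. Krt13, a keratin of suprabasal squamous cells, was 10.2 in pup 9, 9.35 in pup 30, 8.82 in pup 11 and 5.24 in pup 32, with a median of -1.96 over all 19 pups and a highest level of -2.11 in adult and old rats. Ivl, the involucrin gene, was above background in pups 9, 11, 30 and 32 and on no other array. Other pups had single serpins at like levels without these markers. Pup 24 had Serpinb10 at 3.29 with Krt13 at -1.22, and pup 35 had Serpinb12 at -0.75 with Krt13 at -0.45. Ivl was at the floor in both. The summed level of the 5 measured basal and squamous markers ran from 7.75 to 11.35 in pups, from 7.96 to 8.20 in adult and from 9.08 to 9.37 in old rats. By litter mean, Krt13, Ivl, Krt5 and Krt14 were highest in L1, and Tp63 was highest in L2. None of the 5 was called between ages. Their part in the serpin levels was not tested.

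A different set stood high in L1 pup 12. This pup had the highest level of Spin2a probe 1 among the pups, 1.58, of Spin2b, 0.24, of Serpinc1 probe 1, 0.15, of Serpind1, the heparin cofactor II gene, -2.93, and of Serpinf2 probe 1, 0.79. Serpind1, however, was above background on no array, and at Spin2a probe 3 pup 21 was higher, at 0.54 against 0.21 in pup 12. Hepatocyte markers were also high in pup 12: Alb was 4.36, Fgb 4.54 and Apoh 2.87, against medians of -4.10, -4.20 and -3.63 over the pups. The summed hepatocyte level was 5.71 in this pup, with a median of -1.13 over the 19, and their part in the serpin levels was not tested.

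**Figure D4:**
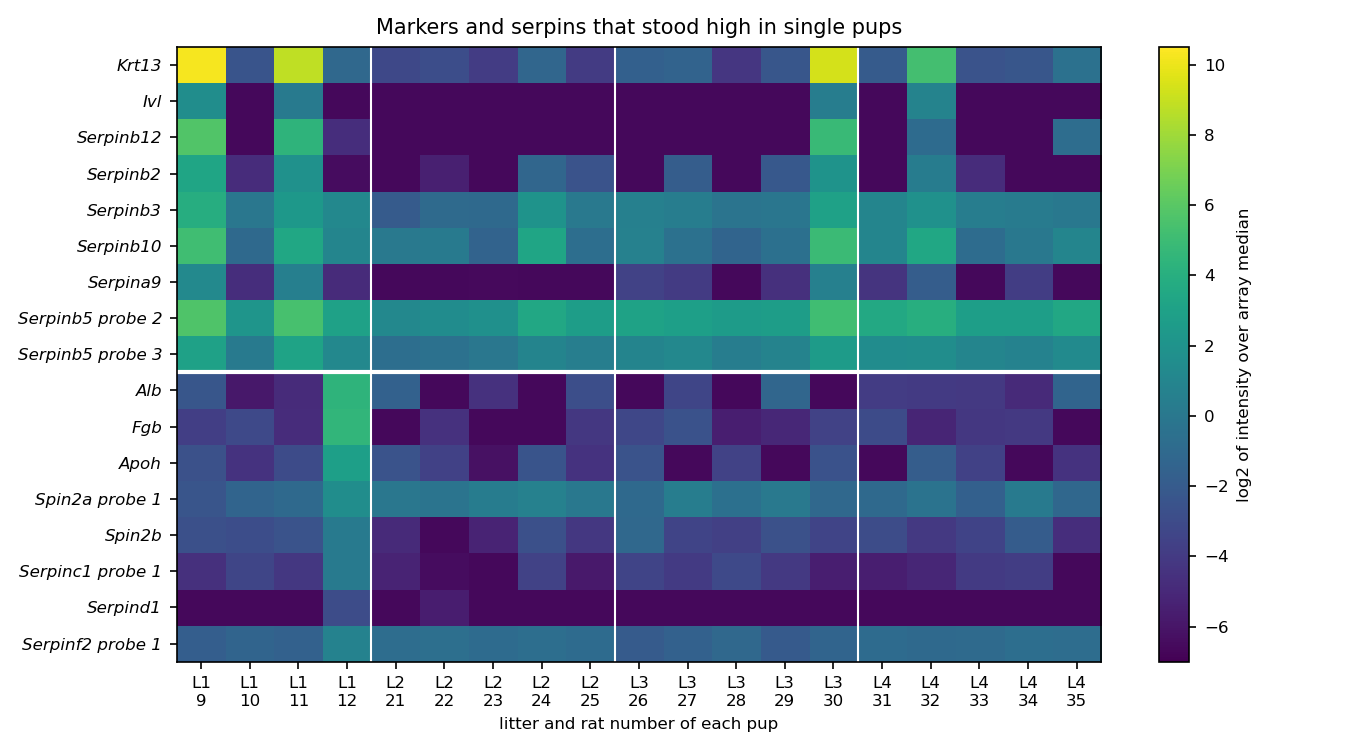
Levels (colour, log2 of intensity over the array median) of markers and serpins in rows and the 19 pups in columns, by litter and rat number. The upper block, from Krt13 to Serpinb5 probe 3, is brightest in pups 9, 11 and 30 in most rows. Pup 32 is above pups 11 and 30 at Ivl and above pup 11 at Serpinb10. The lower block, from Alb to Serpinf2 probe 1, is brightest in pup 12. Colours of different rows are different probes and cannot be compared.

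Among the 4 litters, 7 of 44 members differed (23.8% of all probes did), and 3 without the 4 pups in which Ivl was above background. Those pups include 9 and 11 of L1, which held only 4 pups, so that fit also had fewer L1 pups. L1 stood apart in most of the 7 members. Serpinb6a had a mean of 5.28 in L1 and 5.86 to 5.96 in the other litters (adjusted p = 7.12e-05), Serpinb1a 2.63 against 3.67 to 3.77 (adjusted p = 0.000503), and Serpina4 0.30 against -1.21 to -0.58 (adjusted p = 0.00302). Serpini1, neuroserpin, the neuronal inhibitor of tissue plasminogen activator, was highest in L1 at 4.33 and lowest in L2 at 3.52 (adjusted p = 0.00239), and it was called in no age comparison. L1 was scanned on another day than the other litters, so litter and scan day cannot be told apart for it. Within that shared scan day, L1 against old rats, 5 members were higher (13.6% of all probes) and 8 lower (19.0%).

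Serpini2, pancpin, was above background in 14 pups, on 1 adult array and on all 8 old arrays. Its level in pups ran from -2.57 to -0.61, the adult rats had -5.91, -2.89, -2.37 and -2.15 and the old rats -0.64, -0.83, -0.59 and -0.44. The old rats lay above all adult rats. Adult minus old was -2.70 ± 0.58 (adjusted p = 0.000551), or -2.57 relative to all probes. It was -0.23 with normexp and quantile normalization, and was not called by the methods' t-test (adjusted p = 0.109) or with only the groups compared in the fit (adjusted p = 0.0292). Newborn minus adult, 1.90 ± 0.45 (adjusted p = 0.000917), was 1.04 and not called without adult rat 13 (adjusted p = 0.0133), the lowest rat. That call was also lost with normexp (0.14, adjusted p = 0.0227), with litter means as replicates (adjusted p = 0.0331) and by the methods' t-test (adjusted p = 0.178).

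Of the proteases that serpins inhibit, 32 of the 33 listed were measured, with 11 higher (27.0% of all probes) and 3 lower (19.9%) in newborn than adult rats and a median of 0.27. Klk8, the neuropsin gene, was higher in newborn rats by 3.22. Gzmb, the granzyme B gene, was above background in no pup and on all adult and old arrays. Ctsk, the cathepsin of bone-resorbing cells, was higher in newborn and adult than in old rats, by 4.86 and 5.07. Its mean was 2.74 in L1, which shared a scan day with old rats, and 5.54 to 6.79 in the other litters, against 0.34 in old rats. Plat and Plau, the plasminogen activator genes that Serpine2 can restrain, were at -0.72 and -0.33 for newborn minus adult, and neither was called.

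Of the 10 measured receptors and cofactors, 3 were higher and 2 lower in newborn than in adult rats, close to the shares of all probes. The clearance receptor Lrp1 was higher by 0.61, and Lrp2, megalin, lower by 1.76. Of 18 measured inhibitors of other families, 6 had higher levels in newborn than adult rats and 2 lower, beside the same 27.0% and 19.9% of all probes. A2m, the alpha-2-macroglobulin gene, was higher by 2.17. Csta, a squamous cystatin, was above background in all 19 pups and on no adult or old array, with means of 3.75, -5.11 and -3.49.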

How the data were processed

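The authors extracted spot intensity from 1-colour Agilent scans with Feature Extraction (2 releases, the earlier for adult arrays alone), and the deposited intensity is background-subtracted and not scaled between arrays. A second deposited table holds ratio values (GeneSpring: negatives set to 0.01, each array divided by its median, each probe by its own), used as an alternative. Here, control spots and 4189 flagged outlier spot values were left out, spots of a probe were averaged, intensities were divided by the array median, floored at 0.01 and log2-transformed, and both sides of each adult or old rat were averaged. A probe was above background where Feature Extraction flagged it positive, well above background, uniform and unsaturated. limma 3.58.1 (R 4.3.3; lmFit, eBayes with trend) was fitted to 6 groups over all 41012 probes, newborn being the mean of 4 litters, with Benjamini-Hochberg adjustment over all probes and calls at 0.01. The fit was tested on simulated data.

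The members and gene lists were chosen with earlier results of these data known. Values per rat are given for Spin2 and, in each age comparison, for the 5 called and expressed members with the largest change in each direction, with further probes of those genes; other names were chosen after their values were seen. Probes of a gene are numbered by mean level, and a listed gene is represented by its brightest probe. Of 48 member probes, 27 matched a current RefSeq symbol by accession; Spin2a was matched through a synonym. The number of arrays limits precision. Pups of a litter share a mother, and each litter was a group of its own, so the error term holds spread within litters and between rats of an age, not between litters; a fit on litter means was an alternative. One member is not reported here by name.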

Additional observations from a re-analysis of the deposited data

Results flagged for a closer look

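Among 119 group and probe combinations of the named members expressed in a group, 3 held a rat whose gap to its nearest neighbour was large for the range of its group, where chance flags about 1 in 20. Serpinb5 probe 2 was 5.14 in L3 pup 30, against 2.63 to 3.11 in the other 4 pups of L3, and this was 1 of the pups with high Krt13. Serpinh1 was 8.63 in L1 pup 11, against 7.90 to 8.01 in the other 3 pups of L1, and Serping1 probe 1 was 5.85 in L3 pup 26, against 6.31 to 6.48 in the other 4.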

How the results depend on the processing

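Outside the leave-out fits, 34 called changes, those of the members chosen for the size of their change, kept their direction and call in 502 of 554 refits, and leaving out 1 rat kept 885 of 918. Each of the 27 rats was left out in turn, also where the comparison did not include that rat. Such a fit cannot move the change itself, only its error, so part of the 885 was nearly fixed in advance. The other called members were followed in the counts alone. Serpinb5 probe 1 between adult and old rats reversed, to 0.094 with quantile normalization and 0.029 with normexp. The number of members called higher in newborn than in adult rats was 10, but 6 with quantile normalization, 4 with normexp and 6 over probes expressed in all groups, and the 9 called lower were 5 by the methods' t-test. The 5 higher in newborn than in old rats were 3 with the 75th percentile, the authors' matrix, either expression filter or without the 4 pups with Ivl above background (added after the data were seen), 2 with normexp and 8 with every array as a sample. The 2 higher in adult than in old rats were 5 with quantile normalization or normexp, 4 with every array as a sample, and 1 with the rat, slide or scan day as a random block, by the t-test or with only the groups compared. The 5 higher in L1 than in old rats were 3 with the 75th percentile, normexp, a floor of 0.1 or probes expressed in all groups, 1 with the slide block, with only the groups compared or without the 4 pups, and 8 with the scan day block. The 7 that differed among litters were 3 with the slide block or without the 4 pups, a set that takes pups 9 and 11 from L1. The cause was not tested. Leaving out 1 rat gave 7 to 11 and 7 to 10 (newborn against adult, higher and lower), 2 to 5 and 9 to 11 (newborn against old), 2 to 4 and 6 to 9 (adult against old), 2 to 6 and 8 to 10 (L1 against old) and 6 to 9 (litters). Signal near background limits the 20 members expressed in no group. No paired analysis was possible because no rat number occurs in more than 1 group.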
